A study of Mus musculus with 4 samples.

Results

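The proteasome genes described here are the mouse genes whose symbol is Psm, a letter from a to g and a digit, and 50 of the 19938 genes with a probeset of a single symbol met that rule. They were measured in bone marrow-derived macrophages, on 4 whole-transcript expression arrays with 1 array per group. The groups were Stat6-/- macrophages cultured with interleukin 4 (IL-4), Stat6-/- macrophages in medium, wild-type macrophages with IL-4 and wild-type macrophages in medium. IL-4 is a type 2 cytokine that signals through the transcription factor STAT6, and the comparisons ask how macrophage transcripts differ with IL-4 and without Stat6. The Stat6-/- cells carry the strain label 4get/Stat6-/-, 4get being a reporter allele of the Il4 gene, and the wild-type cells carry the label BALB/c with no 4get allele named. Genotype, the 4get allele and strain background therefore cannot be told apart in the comparisons between genotypes. In all 4 groups, bone marrow cells had been differentiated for 7 days with 10% supernatant of the L929 fibroblast line, replated and cultured for 24 h, and RNA was taken from sorted cells, with 200 ng per array. The unit of the IL-4 dose is not settled, since the samples' protocols give 10 µg/mL and the description of the whole study gives 10 mg/mL. The labels do not say how many mice gave each culture or whether animals were pooled.

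With 1 array per group no difference has a replicate check, and no p-value, SD or test is given anywhere. Signals are on the log2 scale, and 1 unit is a 2-fold difference. A gene is said to have risen, or to be higher, past 0.5 when its log2 difference was at least 0.5 (1.41-fold) and the higher array reached a floor of 2.52, the median signal of probesets with 1 symbol. A difference of at least 1 is called 2-fold. These sizes describe the 4 arrays and stand in for no test. RNA was measured in bulk from the sorted cells of each group, so fewer cells of a type and less RNA per cell cannot be told apart. The comparisons share arrays: each array enters several of them, so their values are set side by side and not counted as separate evidence. A probeset's signal depends on its probes, so levels are compared between arrays for a gene and not between genes.

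The proteasome is the protease that degrades ubiquitin-tagged proteins. Its barrel-shaped core particle is built of α rings, which gate the entrance, around β rings, which hold the proteolytic sites. A regulatory cap, with a base ring of ATPases and a lid of non-ATPase subunits, binds ubiquitin chains, unfolds the substrate and feeds it into the core. Other activators can bind the core in place of the cap, and in cells exposed to interferon γ, and constitutively in many immune cells, the catalytic β subunits are replaced by the immunoproteasome subunits, which favour peptides suited to presentation on MHC class I. Macrophages use both forms for protein turnover and antigen processing.

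Promoter windows of the 3 immunosubunit genes and of the constitutive catalytic genes Psmb5 and Psmb6 are shown. They allow the letters near the starts of paired genes to be set side by side. Psmb7, the constitutive counterpart of Psmb10, had no window to show, so Psmb10 stands without its partner. Each window runs from 250 bases before to 50 bases after the start of the gene in RefSeq (build GRCm38.p6), 5′ to 3′ on the gene's strand. Capitals mark matches, on either strand, to STAT motifs (TTC and GAA with 3 or 4 bases between), to the interferon response core (GAAA repeated with 2 bases between) or to the antioxidant response core TGANNNNGC, which Nrf transcription factors bind. Psmb8 lies at chr17:34197945-34198244 on the plus strand, Psmb5 at chr14:54617946-54618245 on the minus strand, Psmb9 at chr17:34187281-34187580 on the minus strand, Psmb6 at chr11:70525107-70525406 on the plus strand and Psmb10 at chr8:105938343-105938642 on the minus strand.
Psmb8: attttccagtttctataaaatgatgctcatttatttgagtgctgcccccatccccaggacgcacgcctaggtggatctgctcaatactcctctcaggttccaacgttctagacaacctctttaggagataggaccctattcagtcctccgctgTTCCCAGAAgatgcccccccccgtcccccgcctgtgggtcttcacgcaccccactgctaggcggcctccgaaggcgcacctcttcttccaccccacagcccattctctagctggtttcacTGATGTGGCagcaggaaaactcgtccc
Psmb5: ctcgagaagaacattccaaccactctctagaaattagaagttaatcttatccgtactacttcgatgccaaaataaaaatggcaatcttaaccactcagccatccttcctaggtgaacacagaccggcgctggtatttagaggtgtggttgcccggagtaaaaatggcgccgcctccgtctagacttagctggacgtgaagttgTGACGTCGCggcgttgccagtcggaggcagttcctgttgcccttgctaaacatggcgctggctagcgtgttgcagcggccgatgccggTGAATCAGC
Psmb9: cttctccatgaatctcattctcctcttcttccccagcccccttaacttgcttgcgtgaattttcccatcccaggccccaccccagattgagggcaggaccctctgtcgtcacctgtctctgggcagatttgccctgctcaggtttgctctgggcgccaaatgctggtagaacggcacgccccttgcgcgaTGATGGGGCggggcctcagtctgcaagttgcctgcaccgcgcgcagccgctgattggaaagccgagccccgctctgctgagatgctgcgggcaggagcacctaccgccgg
Psmb6: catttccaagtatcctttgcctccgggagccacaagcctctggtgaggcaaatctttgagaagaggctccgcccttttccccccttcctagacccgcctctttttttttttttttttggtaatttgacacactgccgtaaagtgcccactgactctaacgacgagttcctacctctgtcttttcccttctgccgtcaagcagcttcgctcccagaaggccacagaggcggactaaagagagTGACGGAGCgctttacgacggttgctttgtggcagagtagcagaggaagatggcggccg
Psmb10: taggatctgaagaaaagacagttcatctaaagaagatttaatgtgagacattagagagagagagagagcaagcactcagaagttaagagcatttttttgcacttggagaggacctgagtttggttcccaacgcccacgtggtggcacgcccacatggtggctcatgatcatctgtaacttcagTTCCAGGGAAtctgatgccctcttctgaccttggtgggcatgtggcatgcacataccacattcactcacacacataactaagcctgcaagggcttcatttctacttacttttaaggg
The Psmb8 window held a STAT match with 3 bases between TTC and GAA at position -97 and an antioxidant response match at position 24, counted from the start site. The Psmb10 window held the sole match among the members to the STAT spacing of 4 bases, the spacing that STAT6 is known to prefer, at position -67. Psmb5 had antioxidant response matches at positions -47 and 42, Psmb9 had one at -60 and Psmb6 had one at -9. None of the 5 windows held the interferon response core.

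A window was given for 42 of the 50 members (46 windows, since a gene can have several starts), and the letters were counted in it beside the promoters of all 27025 genes with a window. TTCNNNGAA was present in 3 members (Psmb8, Psmd2 and Psmg1), which is 7.14% of the 42, against 9.55% of all genes. The STAT spacing of 4 bases was present in 2.38% of members, against 8.01% of all genes. The interferon response core was present in 5 members (Psmb3, Psmd4, Psmd9, Psme1 and Psmg4), or 11.9%, against 3.99% of all genes. TGANNNNGC was present in 25 members, or 59.5%, against 45.0% of all genes, and CCAAT, the box bound by NF-Y, in 16 members, or 38.1%, against 41.1%. Most members reached the floor, and 8703 genes with a window did so. Among those 8703 the shares were 7.95% and 6.43% for the STAT spacings of 3 and 4 bases. They were 3.78% for the interferon response core, 47.8% for TGANNNNGC and 41.8% for CCAAT. Matches of different motifs shared bases in Psmg1 (STAT and antioxidant response) and Psmg4 (interferon and antioxidant response). A match is a run of letters and not a shown binding site.

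Stat6 itself, the gene deleted, had a signal of 4.25 in Stat6-/- cells with IL-4 and 4.54 in Stat6-/- cells in medium, against 6.68 in wild-type cells with IL-4 and 7.34 in wild-type cells in medium. Array medians over all probesets lay between 2.23 and 2.29. All 9 macrophage markers reached the floor, and their summed linear signal was 10032 and 10130 in Stat6-/- cells with IL-4 and in medium, against 7495 and 11042 in wild-type cells with IL-4 and in medium. Of 26 markers of T cells, B cells, neutrophils, dendritic cells, fibroblasts, basophils and mast cells, 6 reached the floor on some array (Cd3e, Cd79b, S100a9, Zbtb46, Col1a1 and Col1a2). Their summed linear signal was 105.7 and 109.5 in Stat6-/- cells with IL-4 and in medium, and 103.5 and 99.6 in wild-type cells with IL-4 and in medium. The summed macrophage signal was lowest on the array on which most proteasome genes were highest, although Mrc1 was highest there and Cd68 and Itgam were not lowest, and the part of these markers in the results was not tested.

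Of the 50 members, 48 reached the floor on at least 1 array and 46 on all 4. The members below it on every array were Psma8, an α subunit of the testis, at 1.74 to 2.12, and Psmb11, the catalytic subunit of the thymus proteasome, at 1.51 to 1.78. Psmg3 and Psmc3ip were below the floor in wild-type cells in medium. By role the 50 were 8 α genes, 7 constitutive β genes, 4 immuno- or thymoproteasome genes, 6 cap ATPases, 11 non-ATPase cap subunits, 3 cap chaperones, 4 activators, 1 inhibitor and 4 core chaperones. The other 2 met the naming rule without being subunits: Psmc3ip, a meiotic recombination factor, and Psme3ip1, a binding partner of the activator Psme3.

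Wild-type cells with IL-4 gave the highest signal for 34 of the 48 members above the floor (70.8%), against 28.2% of the 10798 genes above it. Stat6-/- cells in medium gave the lowest signal for 28 members (58.3%), against 22.5% of all genes. Both Stat6-/- arrays lay below both wild-type arrays for 29 members (60.4%), against 24.7% of all genes. The opposite order held for Psmb9 alone among the 48, or 2.08%, against 13.4% of all genes. Both IL-4 arrays lay above both medium arrays for 11 members (22.9%), against 13.0% of all genes. These orders are given for the signals as deposited only, and not for other normalizations. An order can rest on a thin margin: Psmc1 stood at 6.97 in Stat6-/- cells with IL-4 and at 7.03 in wild-type cells in medium. The spread over the 4 arrays, among the members above the floor on all of them, went up to 1.52 for Psmb5 and was as little as 0.05 for the α subunit Psma1, which stood at 7.23 to 7.28.

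**Figure D1:**
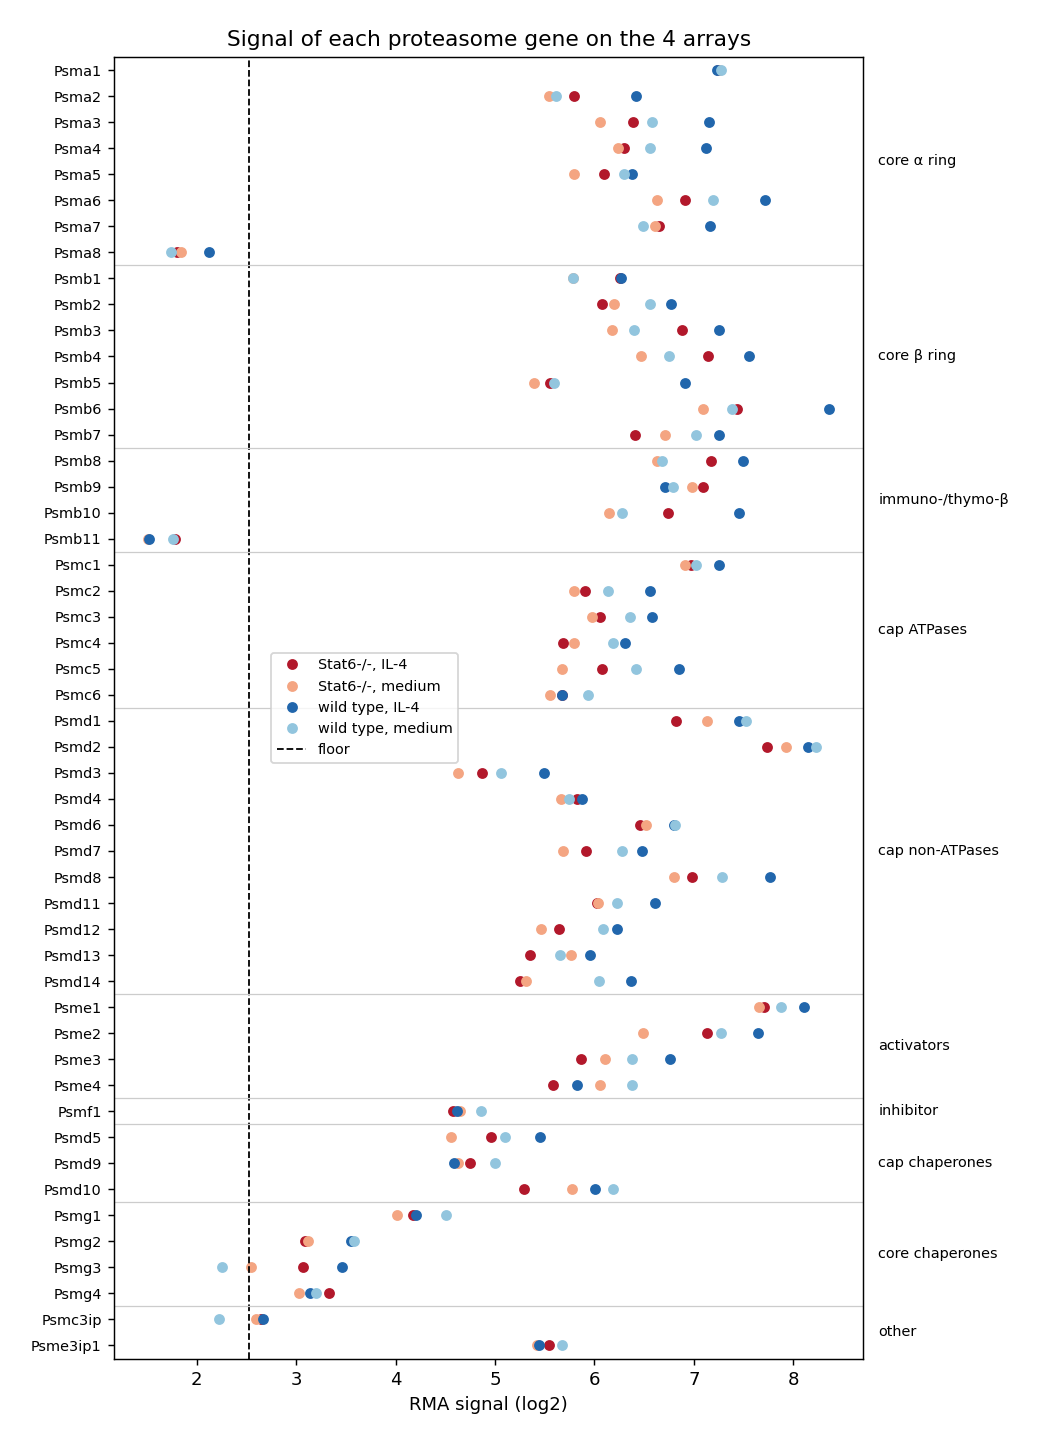
Signal of each of the 50 proteasome genes on the 4 arrays (log2 RMA signal on the x axis), grouped by role, with a dashed line at the floor of 2.52. The dark blue points, wild-type cells with IL-4, are the rightmost for 34 of the 48 genes above the floor, and Psma8 and Psmb11 lie left of the line.

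In wild-type macrophages, most core particle genes were higher with IL-4, and cap genes differed less. Of the 48 members, 12 were higher past 0.5 with IL-4 and 1 was lower, and the difference was at least 1 for 3 of the 12 (Psmb5, Psmg3 and Psmb10). For Psmg3, whose medium signal was below the floor, a rise of at least 1.92-fold is all that was measured, which leaves 2 at 2-fold. Over all genes above the floor, 11.9% were higher past 0.5, 23.3% were lower and 9.74% differed at least 2-fold in either direction. The members' median difference was 0.27, against -0.11 over all genes. The 9 core genes among the 12 came from 14 α and constitutive β genes above the floor, whose median difference was 0.57, while 0 of 17 cap subunits were past 0.5 on the signals as deposited, with a median of 0.22. When quantile normalization was applied again, the all-gene median moved to 0.021, the members' median to 0.40 and the number of members higher past 0.5 to 20, beside 15.8% of all genes. The members' median then lay 0.38 above that of all genes, as it did on the signals as deposited. Under that setting 10 of 14 core genes (median 0.68) and 5 of 17 cap subunits (median 0.34) were higher past 0.5. With the intensity trend removed by lowess it was 10 of 14 core genes (median 0.72) and 7 of 17 cap subunits (median 0.39), so the count of 0 for the cap rests on the normalization.

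Psmb5 carries the chymotrypsin-like site of the constitutive core and had the largest rise among the members. Its signal was 5.55 in Stat6-/- cells with IL-4, 5.39 in Stat6-/- cells in medium, 6.91 in wild-type cells with IL-4 and 5.59 in wild-type cells in medium. The wild-type IL-4 array stood apart from the other 3, which lay within 0.20 of each other. The difference with IL-4 was 0.16 on the log2 scale in Stat6-/- cells, and the rise in wild-type cells was 1.32, or 2.50-fold.

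Psmb6 carries the caspase-like site and came next among the constitutive catalytic genes. Its signal was 7.43 in Stat6-/- cells with IL-4, 7.09 in Stat6-/- cells in medium, 8.36 in wild-type cells with IL-4 and 7.38 in wild-type cells in medium. Its difference with IL-4 was 0.34 in Stat6-/- cells, and its rise in wild-type cells was 0.98, or 1.97-fold. Psmb7, the subunit with the trypsin-like site, had 6.41 in Stat6-/- cells with IL-4, 6.71 in Stat6-/- cells in medium, 7.25 in wild-type cells with IL-4 and 7.03 in wild-type cells in medium. Its difference with IL-4 was -0.30 in Stat6-/- cells and 0.23 in wild-type cells, under the smaller size in both. The 3 constitutive catalytic genes thus differed among themselves in wild-type cells, with Psmb5 and Psmb6 past 0.5 and Psmb7 not.

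The immunosubunits also differed among themselves. Psmb10, which replaces Psmb7 in the immunoproteasome, had 6.74 in Stat6-/- cells with IL-4, 6.15 in Stat6-/- cells in medium, 7.45 in wild-type cells with IL-4 and 6.28 in wild-type cells in medium. It rose with IL-4 by 0.59 in Stat6-/- cells and by 1.17 (2.26-fold) in wild-type cells. Psmb8, which replaces Psmb5, had 7.17 in Stat6-/- cells with IL-4, 6.63 in Stat6-/- cells in medium, 7.49 in wild-type cells with IL-4 and 6.68 in wild-type cells in medium. It rose by 0.54 in Stat6-/- cells and by 0.81 in wild-type cells, so both genes were higher on both IL-4 arrays than on both medium arrays. Psmb9, which replaces Psmb6, had 7.09 in Stat6-/- cells with IL-4, 6.99 in Stat6-/- cells in medium, 6.71 in wild-type cells with IL-4 and 6.79 in wild-type cells in medium. Its difference with IL-4 was 0.10 in Stat6-/- cells and -0.083 in wild-type cells, under the smaller size in both.

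Set pair by pair, the immunosubunit's difference with IL-4 minus its constitutive counterpart's was 0.39 for Psmb8 and Psmb5 in Stat6-/- cells and -0.51 in wild-type cells. For Psmb9 and Psmb6 it was -0.24 in Stat6-/- cells and -1.06 in wild-type cells. For Psmb10 and Psmb7 it was 0.89 in Stat6-/- cells and 0.95 in wild-type cells. The trypsin-like pair was therefore the only pair of the 3 in which the immunosubunit's difference exceeded its counterpart's in both genotypes.

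**Figure D2:**
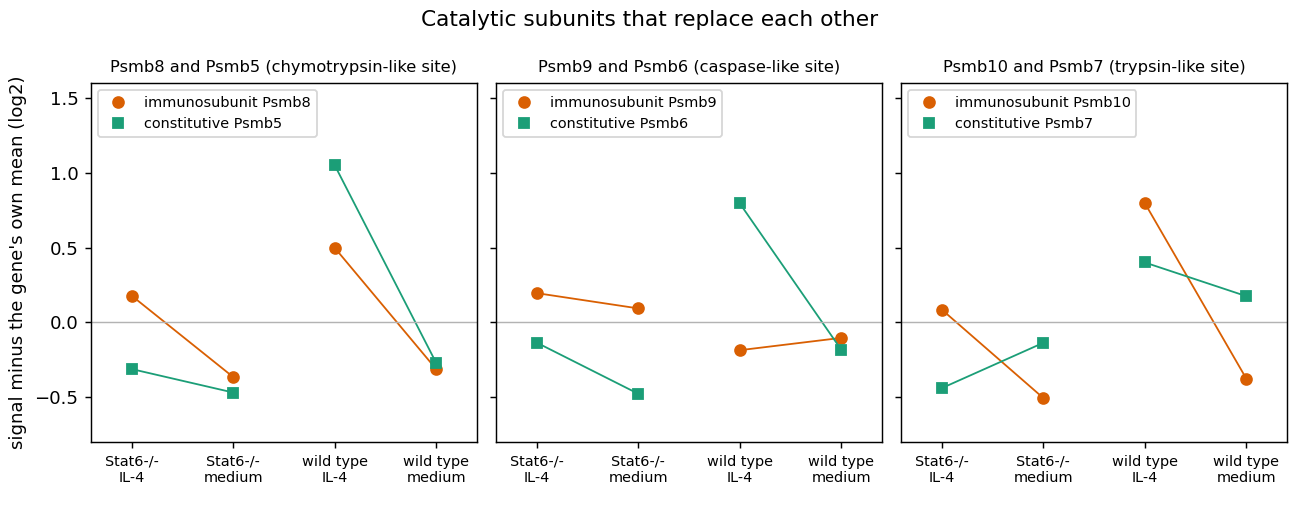
Signal of each catalytic subunit gene minus its own mean over the 4 arrays (log2, y axis) on the 4 arrays, with each immunosubunit in orange beside the constitutive subunit it replaces in green. With IL-4 in wild-type cells Psmb5, Psmb6, Psmb8 and Psmb10 stand above their medium arrays by 0.81 to 1.32, while Psmb9 lies 0.083 below.

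Psmb8 and Psmb9 are induced by interferons in many cells, and so the levels of 27 interferon-stimulated genes above the floor are given beside them. In Stat6-/- cells 0 of the 27 were past 0.5 with IL-4 in either direction, and their median difference was -0.069. Over all genes 4.43% were higher and 5.05% lower past 0.5 there. In wild-type cells 25 of the 27 were lower past 0.5, 0 were higher, and the median was -1.26. Over all genes 23.3% were lower, 11.9% were higher, 9.74% differed at least 2-fold and the median was -0.11. The 18 that were lower at least 2-fold in wild-type cells were Cxcl10, Ddx58, Eif2ak2, Gbp3, Ifit1, Ifit2, Ifit3, Iigp1, Mx1, Mx2, Oas1a, Oas2, Oasl2, Parp14, Rsad2, Rtp4, Trim25 and Xaf1. In the same comparison in wild-type cells the immunosubunits differed by 0.81 (Psmb8), 1.17 (Psmb10) and -0.083 (Psmb9). A link between the interferon-stimulated genes and the immunosubunits was not tested. Tap1, a subunit of the peptide transporter whose start adjoins that of Psmb9, had 6.81 in Stat6-/- cells with IL-4, 6.84 in Stat6-/- cells in medium, 6.04 in wild-type cells with IL-4 and 6.89 in wild-type cells in medium. It fell by 0.85 with IL-4 in wild-type cells and was the sole gene of 10 in the class I peptide pathway list past 0.5 there. The share of that list lower was thus 10%, under the 23.3% of all genes. Irf1, an interferon-induced activator of immunosubunit genes, had 6.95 in Stat6-/- cells with IL-4, 6.64 in Stat6-/- cells in medium, 6.55 in wild-type cells with IL-4 and 6.93 in wild-type cells in medium, under the smaller size in both genotypes.

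In the α rings, 0 of 7 genes above the floor were past 0.5 with IL-4 in Stat6-/- cells, where they lay between -0.0098 and 0.34. In wild-type cells 5 of the 7 were higher past 0.5: Psma2 by 0.81, Psma7 by 0.68, Psma3 by 0.57, Psma4 by 0.56 and Psma6 by 0.53. Psma1 and Psma5 differed by -0.049 and 0.077 there. The 3 Psma3 probesets gave 0.52 to 0.62 in wild-type cells, whereas a second Psma5 probeset gave 0.37.

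Among the non-catalytic subunits of the β rings, Psmb3 had 6.88 in Stat6-/- cells with IL-4, 6.18 in Stat6-/- cells in medium, 7.26 in wild-type cells with IL-4 and 6.40 in wild-type cells in medium. Its rise was 0.71 in Stat6-/- cells and 0.86 in wild-type cells. A second Psmb3 probeset gave 0.061 in Stat6-/- cells and 0.99 in wild-type cells, so the call in Stat6-/- cells rests on the choice of probeset. Psmb4 had 7.14 in Stat6-/- cells with IL-4, 6.47 in Stat6-/- cells in medium, 7.55 in wild-type cells with IL-4 and 6.75 in wild-type cells in medium, and rose by 0.67 in Stat6-/- cells and 0.80 in wild-type cells. Psmb1 differed by nearly the same amount in both genotypes, 0.48 in Stat6-/- cells and 0.49 in wild-type cells, and stayed just under the smaller size. Psmb2 differed by -0.11 in Stat6-/- cells and 0.21 in wild-type cells.

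The cap genes differed less with IL-4. In Stat6-/- cells the median was 0.094 for the ATPases and -0.0054 for the non-ATPase subunits, and 0 of the 17 cap genes were past 0.5 there. In wild-type cells the 6 ATPases, Psmc1 to Psmc6, ranged from -0.26 (Psmc6) to 0.43 (Psmc5), with a median of 0.23. The 11 non-ATPase subunits ranged from -0.081 (Psmd2, the scaffold that docks ubiquitin shuttles) to 0.48 (Psmd8), with a median of 0.20. Psmd4, a ubiquitin receptor of the cap, differed by 0.15 in Stat6-/- cells and 0.13 in wild-type cells.

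The activators did not move as a group. Psme1 and Psme2 form the interferon-inducible activator, and Psme1 had 7.70 in Stat6-/- cells with IL-4, 7.66 in Stat6-/- cells in medium, 8.11 in wild-type cells with IL-4 and 7.87 in wild-type cells in medium. Psme2 had 7.14 in Stat6-/- cells with IL-4, 6.49 in Stat6-/- cells in medium, 7.65 in wild-type cells with IL-4 and 7.27 in wild-type cells in medium. Psme2 was past 0.5 with IL-4 in Stat6-/- cells (0.65) and not in wild-type cells (0.38), while Psme1 was past it in neither. The Psme2 signal is uncertain, since a near-identical copy, Psme2b, may share it. A probeset assigned to both genes differed by 0.17 with IL-4 in Stat6-/- cells. For Stat6-/- against wild-type cells it differed by -0.25 in medium and -0.32 with IL-4. Each of these was under the smaller size, so the Psme2 calls rest on the probeset used. Psme3, a nuclear activator, had 5.86 in Stat6-/- cells with IL-4, 6.11 in Stat6-/- cells in medium, 6.76 in wild-type cells with IL-4 and 6.38 in wild-type cells in medium. Psme4, an activator known for acetylated histone degradation in male germ cells, had 5.58 in Stat6-/- cells with IL-4, 6.06 in Stat6-/- cells in medium, 5.82 in wild-type cells with IL-4 and 6.38 in wild-type cells in medium. It differed by -0.48 with IL-4 in Stat6-/- cells and fell by 0.56 in wild-type cells, the sole member lower past 0.5 there. Psmf1, an inhibitor of the core in vitro, had 4.58 in Stat6-/- cells with IL-4, 4.64 in Stat6-/- cells in medium, 4.62 in wild-type cells with IL-4 and 4.85 in wild-type cells in medium, under 0.5 in every comparison.

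Chaperones assemble the core and the cap and are not part of the finished particle. Psmg3, a core chaperone, had 3.07 in Stat6-/- cells with IL-4, 2.55 in Stat6-/- cells in medium, 3.46 in wild-type cells with IL-4 and 2.26, below the floor, in wild-type cells in medium. With IL-4 it was higher by 0.52 in Stat6-/- cells and at least 1.92-fold higher in wild-type cells, measured against the floor, all at signals close to it. Psmg1 had 4.17 in Stat6-/- cells with IL-4, 4.02 in Stat6-/- cells in medium, 4.21 in wild-type cells with IL-4 and 4.51 in wild-type cells in medium. Psmg4 had 3.33 in Stat6-/- cells with IL-4, 3.03 in Stat6-/- cells in medium, 3.14 in wild-type cells with IL-4 and 3.20 in wild-type cells in medium. Psmg1, Psmg2 and Psmg4 differed with IL-4 by -0.30 to -0.027 in wild-type cells. Psmd9, a chaperone of the cap base, had 4.75 in Stat6-/- cells with IL-4, 4.63 in Stat6-/- cells in medium, 4.59 in wild-type cells with IL-4 and 5.01 in wild-type cells in medium. Psmd10, the cap chaperone gankyrin, had 5.29 in Stat6-/- cells with IL-4, 5.77 in Stat6-/- cells in medium, 6.01 in wild-type cells with IL-4 and 6.18 in wild-type cells in medium. Psme4 and Psmd10 had the lowest differences of the members with IL-4 in Stat6-/- cells, both -0.48, under the smaller size.

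In Stat6-/- macrophages, 6 of the 48 members were higher past 0.5 with IL-4 (Psmb3, Psmb4, Psme2, Psmb10, Psmb8 and Psmg3) and 0 were lower. Over all genes above the floor, 4.43% were higher past 0.5, 5.05% were lower and 0.355% differed at least 2-fold, a size that 0 members reached. The members' median was 0.12, against -0.046 over all genes. Of the 6, 5 were also past 0.5 in wild-type cells, the exception being Psme2, and all 5 had the larger difference there. No share over all genes is given for this overlap. Differences with IL-4 were wider in wild-type cells for genes at large. Their 5th to 95th percentile ran from -1.12 to 0.80 in wild-type cells and from -0.50 to 0.48 in Stat6-/- cells.

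**Figure D3:**
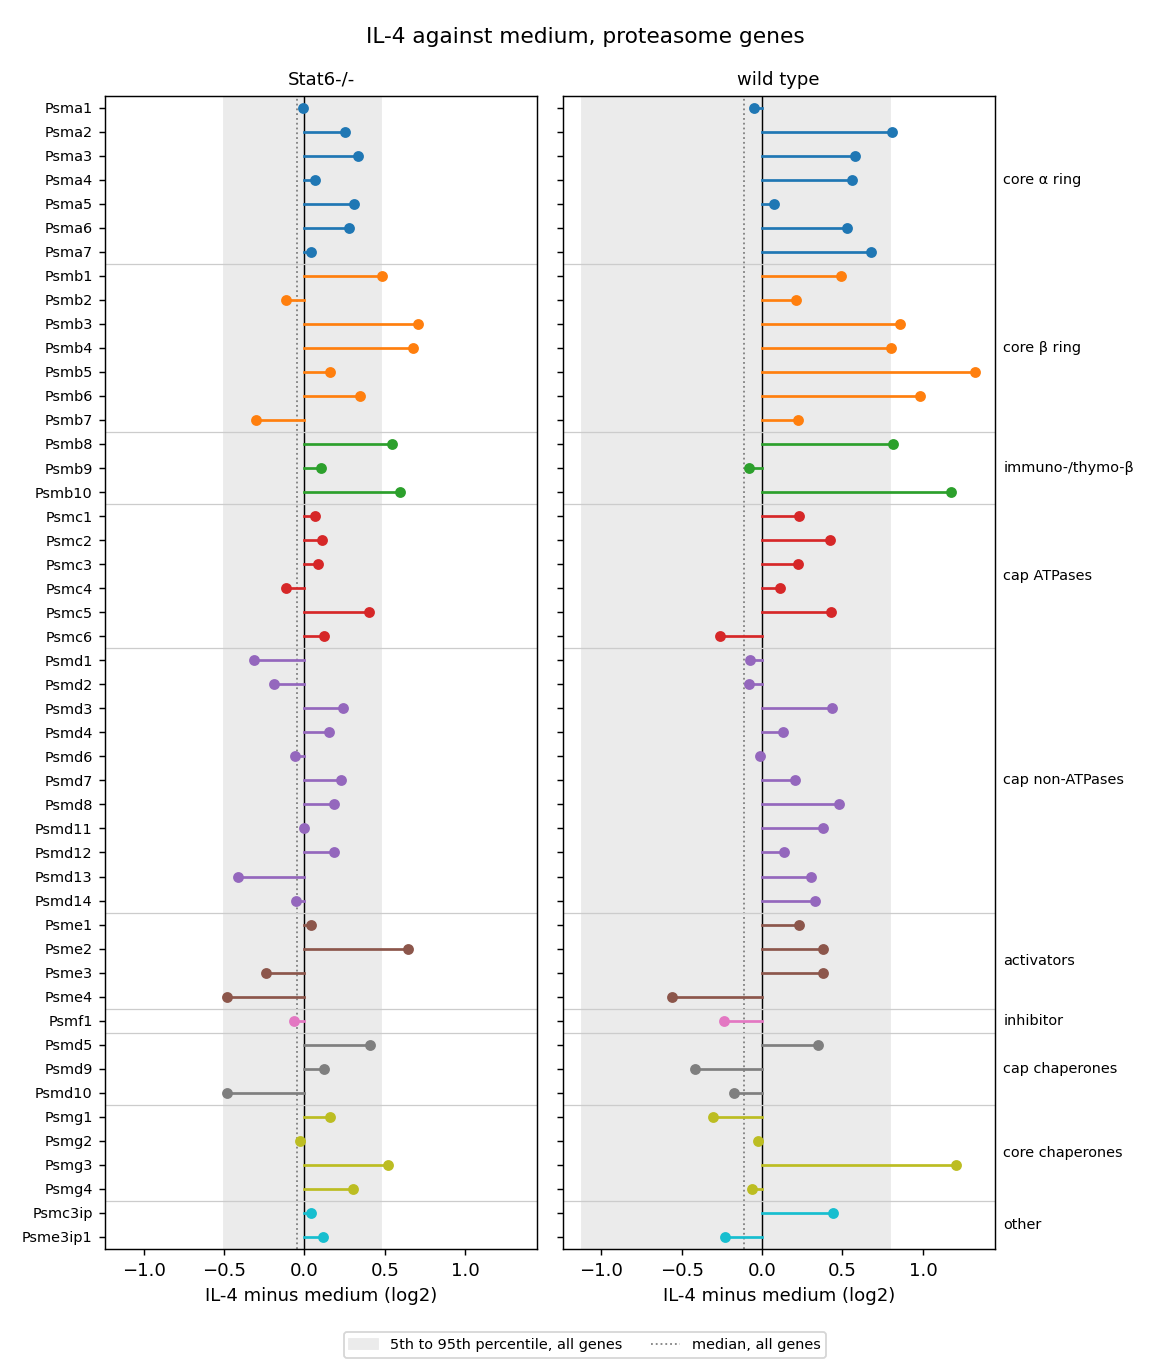
IL-4 minus medium (log2, x axis) for each proteasome gene above the floor, in Stat6-/- cells at left and wild-type cells at right, with the band from the 5th to the 95th percentile and the median of all genes. Core α and β genes extend to the right in wild-type cells, up to 1.32 for Psmb5, and in Stat6-/- cells no gene passes 0.71.

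With IL-4 present, most genes of the α rings, the constitutive β rings and the cap were lower past 0.5 in Stat6-/- than in wild-type macrophages. Of the 48 members, 25 were lower past 0.5 in Stat6-/- cells and 0 were higher, and 2 were lower at least 2-fold (Psmb5 and Psmd14). Over all genes above the floor, 15.3% were lower past 0.5, 13.5% were higher and 8.84% differed at least 2-fold. The members' median was -0.52, against -0.0001 over all genes. The count was 5 of 7 for the α genes, 4 of 7 for the constitutive β genes, 4 of 6 for the cap ATPases and 8 of 11 for the non-ATPase subunits. It was 1 of 3 for the immunosubunits (Psmb10, -0.71), where Psmb8 differed by -0.32 and Psmb9 by 0.38. It was 2 of 4 for the activators (Psme2 and Psme3), 1 of 3 for the cap chaperones (Psmd10) and 0 of 4 for the core chaperones. All 3 constitutive catalytic genes were among the 25, with Psmb5 at -1.36 (2.57-fold lower in Stat6-/- cells), Psmb6 at -0.93 and Psmb7 at -0.84.

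**Figure D4:**
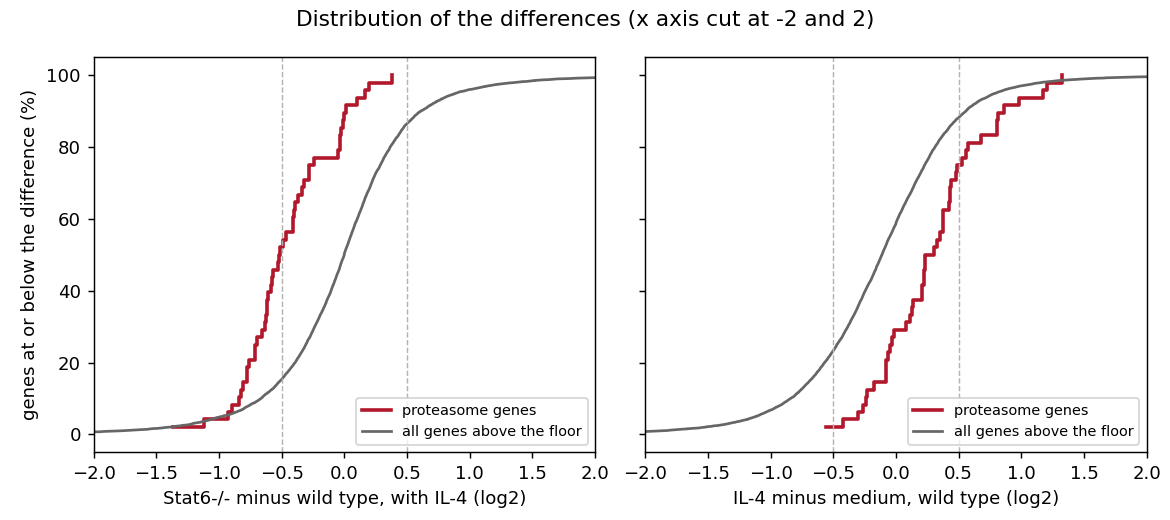
Cumulative share of genes (percent, y axis) at or below each log2 difference (x axis, shown from -2 to 2), for Stat6-/- minus wild type with IL-4 at left and IL-4 minus medium in wild-type cells at right, with dashed lines at -0.5 and 0.5. The red curve of the 48 proteasome genes lies left of the grey curve of all genes above the floor over most of the left panel (medians -0.52 and -0.0001) and right of it over most of the right panel (medians 0.27 and -0.11).

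Psmd14, the deubiquitinase of the cap lid, had 5.26 in Stat6-/- cells with IL-4, 5.31 in Stat6-/- cells in medium, 6.37 in wild-type cells with IL-4 and 6.04 in wild-type cells in medium. Its difference was -1.12 with IL-4 and -0.73 in medium, so both Stat6-/- arrays lay below both wild-type arrays. Its partner in the lid, Psmd7, differed by -0.57 with IL-4 and -0.59 in medium. Psmd8 differed by -0.78 with IL-4 and -0.48 in medium. Psmb9 had the highest difference of the members with IL-4, 0.38, followed by Psmg4 at 0.19 and Psmd9 at 0.16, all under the smaller size. A second probeset each for Psmb3 (-0.87) and Psmc1 (-0.68) was past 0.5 where the one used, -0.37 and -0.28, was not.

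In medium, the difference between genotypes was smaller. Of the 48 members, 9 were lower past 0.5 in Stat6-/- cells and 0 were higher, and 0 differed 2-fold. Over all genes above the floor, 11.8% were lower past 0.5, 4.55% were higher and 1.45% differed at least 2-fold. The members' median was -0.30, against -0.11 over all genes. The 9 were Psme2 (-0.78), Psmc5 (-0.75), Psmd14 (-0.73), Psmd12 (-0.63), Psmd7 (-0.59), Psma6 (-0.56), Psmd5 (-0.55), Psma3 (-0.52) and Psma5 (-0.51). With quantile normalization applied again, 3 members were lower past 0.5, or 6.38%, against 6.65% of all genes, and with the intensity trend removed by lowess 3 were lower, or 6.25%, against 7.65%. The count in medium therefore did not stand above the share of all genes under those settings. The members' median minus that of all genes was -0.19 with quantile normalization and -0.16 with lowess, beside -0.19 on the signals as deposited.

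Psmc5, an ATPase of the cap base, had 6.08 in Stat6-/- cells with IL-4, 5.68 in Stat6-/- cells in medium, 6.85 in wild-type cells with IL-4 and 6.42 in wild-type cells in medium. It was lower in Stat6-/- cells by like amounts under both treatments, -0.78 with IL-4 and -0.75 in medium. A second Psma5 probeset differed by 0.13 between genotypes in medium, so the call for Psma5 rests on the choice of probeset. The probeset assigned to both Psme2 and Psme2b differed by -0.25 there, under the smaller size. The highest differences in medium were 0.37 for Psmc3ip, 0.29 for Psmg3 and 0.20 for Psmb9, and the first 2 rest on a wild-type signal below the floor. Psmc3ip had 2.64 in Stat6-/- cells with IL-4, 2.60 in Stat6-/- cells in medium, 2.67 in wild-type cells with IL-4 and 2.23 in wild-type cells in medium.

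**Figure D5:**
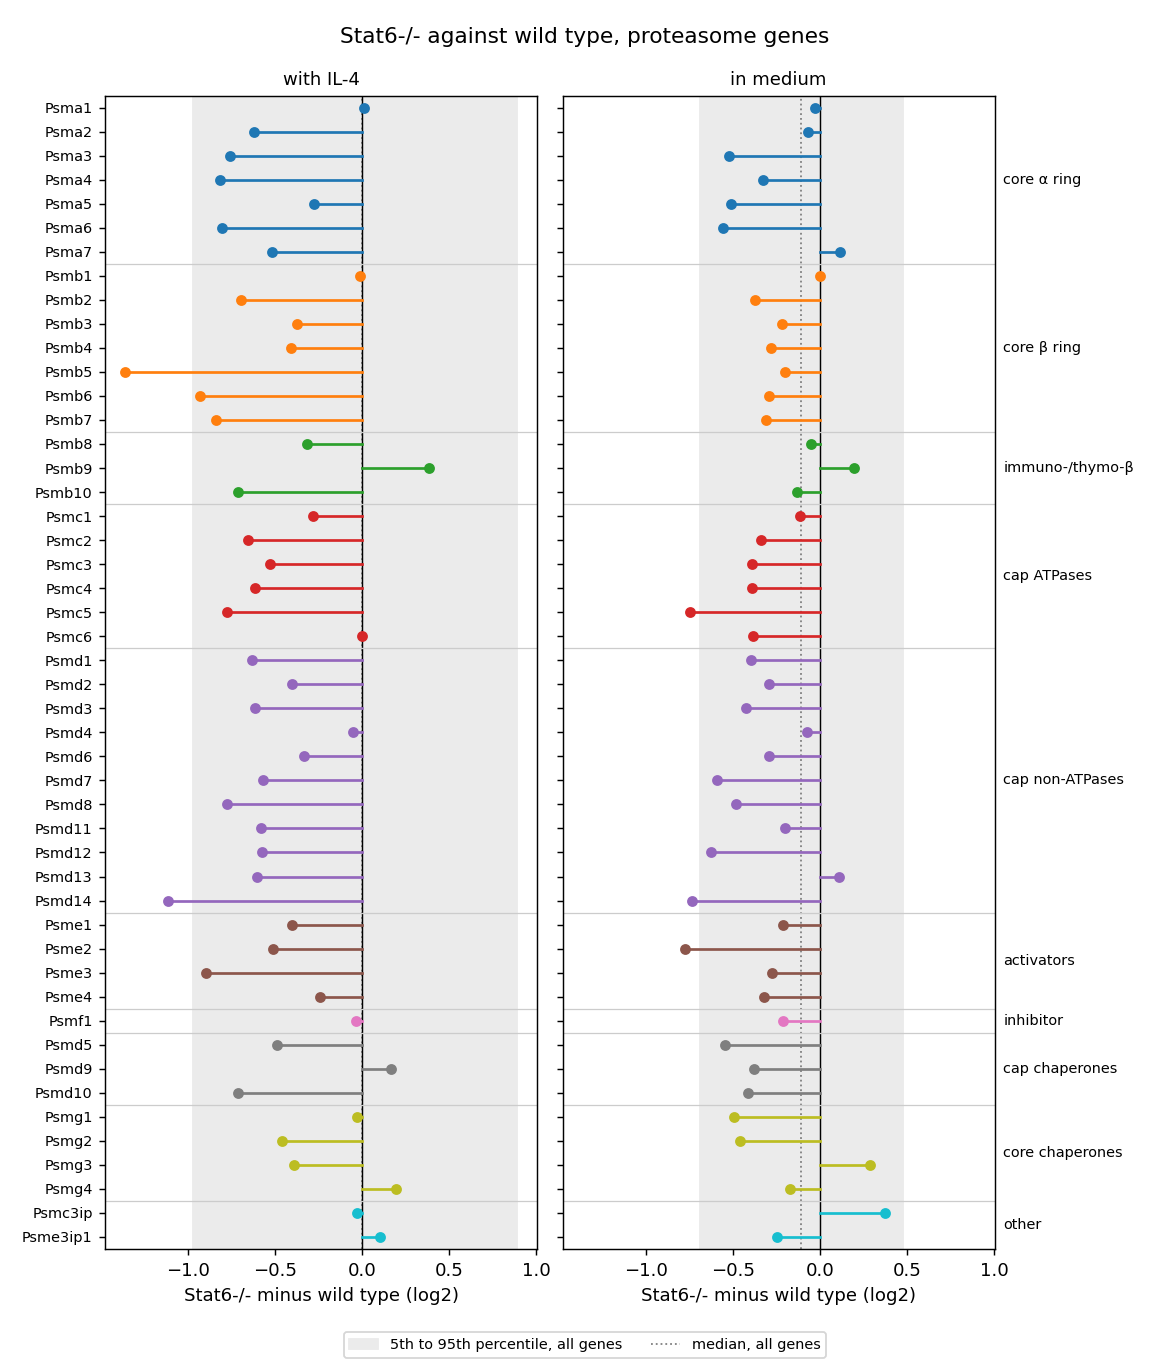
Stat6-/- minus wild type (log2, x axis) for each proteasome gene above the floor, with IL-4 at left and in medium at right, with the band from the 5th to the 95th percentile and the median of all genes. Most points lie left of 0, down to -1.36 for Psmb5 with IL-4 and -0.78 for Psme2 in medium.

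The difference of IL-4 effects was taken as the IL-4 difference in Stat6-/- cells minus that in wild-type cells. It was at or below -0.5 for 9 of the 48 members and at or above 0.5 for 1, and it was below -1 for Psmb5 alone (-1.17). Over all genes above the floor, 12.5% were at or below -0.5, 20.2% at or above 0.5 and 8.97% at least 1 in size. The members' median was -0.18, against 0.072 over all genes. The 9 were Psmb5, Psmd13 (-0.72), Psmg3 (-0.68), Psma7 (-0.64), Psmb6 (-0.64), Psme3 (-0.62), Psmb10 (-0.58), Psma2 (-0.55) and Psmb7 (-0.53). The value for Psmg3 rests on a wild-type medium signal below the floor, and with that signal raised to the floor it was -0.42 and 8 members were at or below -0.5. All 3 constitutive catalytic genes were among them. The 1 above was Psmd9 (0.54), followed under the smaller size by Psmg1 (0.46) and Psmc6 (0.38). Psmc6, an ATPase of the cap base, had 5.67 in Stat6-/- cells with IL-4, 5.55 in Stat6-/- cells in medium, 5.68 in wild-type cells with IL-4 and 5.94 in wild-type cells in medium. Psmd13, a subunit of the cap lid, had 5.35 in Stat6-/- cells with IL-4, 5.76 in Stat6-/- cells in medium, 5.96 in wild-type cells with IL-4 and 5.65 in wild-type cells in medium. Second probesets gave -0.93 for Psmb3 and -0.56 for Psmc1, where those used gave -0.15 and -0.17. For Psma5 a second probeset gave -0.44, against 0.23 for the one used. The further probesets of Psma3 and Psmd2 stayed under the smaller size.

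Proteasome genes that carry other names and genes known to control the family were read from lists of their own. Of 10 proteasome-associated genes with other names, 0 were past 0.5 with IL-4 in Stat6-/- cells, where 4.43% of all genes were higher and 5.05% lower. In wild-type cells 0 were higher and 1 was lower past 0.5 (Zfand2a, -0.92), with a median of 0.056. The share lower was 10%, against 23.3% of all genes, and 11.9% of all genes were higher. Between genotypes with IL-4, 3 were lower in Stat6-/- cells (Usp14, a deubiquitinase of the cap, at -0.82, Pomp at -0.68 and Zfand5 at -0.53) and 1 was higher (Zfand2a, 0.64). Those are 30% and 10% of a short list, against 15.3% and 13.5% of all genes. Pomp, the maturation chaperone of the core, had 7.30 in Stat6-/- cells with IL-4, 7.29 in Stat6-/- cells in medium, 7.98 in wild-type cells with IL-4 and 7.68 in wild-type cells in medium.

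Of 8 regulators, 0 were past 0.5 with IL-4 in Stat6-/- cells. In wild-type cells Nfe2l2, which encodes the oxidative stress factor Nrf2, was the sole gene higher past 0.5, and Mafk and Stat3 were lower, at -0.58 each. These shares of the 8, 12.5% higher and 25% lower, lay near those of all genes, 11.9% and 23.3%. Nfe2l2 had 7.34 in Stat6-/- cells with IL-4, 7.27 in Stat6-/- cells in medium, 8.47 in wild-type cells with IL-4 and 7.70 in wild-type cells in medium. Its difference with IL-4 was 0.065 in Stat6-/- cells and 0.77 in wild-type cells. For Stat6-/- against wild-type cells with IL-4 its difference was -1.13. In that comparison Nfe2l2 was the sole regulator lower past 0.5, or 12.5% of the 8, against 15.3% of all genes. Mafk (0.74) and Stat3 (0.66) were higher past 0.5 there, or 25% of the 8, against 13.5% of all genes. Nfe2l1, which encodes the factor that raises proteasome genes when proteasome activity falls short, had 6.02 in Stat6-/- cells with IL-4, 6.26 in Stat6-/- cells in medium, 6.21 in wild-type cells with IL-4 and 6.30 in wild-type cells in medium, under 0.5 in every comparison.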

How the data were processed

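Total RNA of sorted cells from macrophage cultures was hybridised to 4 Affymetrix whole-transcript arrays, 1 per group. The deposited values are log2 signals that the authors made with RMA in Affymetrix Expression Console, per the submitters' processing notes. Software versions and the genome build: not given in the sources used here. RMA smooths small differences and assumes like overall distributions on all arrays. Of 35557 probesets, 21789 had 1 symbol, 1621 had several and 12147 were not named here. The probeset with the highest mean stood for each of 19938 genes, 10798 of which reached the floor on at least 1 array, and all 50 members matched the RefSeq table (GRCm38.p6). Array columns were mapped by their titles. Log2 differences were taken with Python 3.11.15, pandas 2.3.3, numpy 2.4.6 and statsmodels 0.14.6 (lowess fraction 0.3), and the scripts were tested on simulated data. Medians and shares use genes whose higher array reached the floor.

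Named with all 4 values were the catalytic subunits, activators and inhibitor, the 3 largest increases and decreases in each comparison, Stat6, Pomp, Nfe2l1, Tap1 and Irf1, and companion genes are named where they differed at least 2-fold; others named were chosen after their values were seen. Members, gene lists and motifs were chosen with earlier results of these data known. Of the 9 alternatives, 7 were planned and 2 were added after seeing the data: leaving out members with several probesets, and requiring the floor on all 4 arrays. Precision is limited by the number of arrays.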

Additional observations from a re-analysis of the deposited data

Results flagged for a closer look

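The IL-4 difference had opposite signs in the 2 genotypes, at least 0.2 in size in each, for 3 members: Psmb7, Psmd13 and Psme3. No share over all genes is given for this rule, so the 3 are named as single genes and not as a trait of the members. The difference between the genotypes was not tested, since each group is 1 array. For Psmb7, the trypsin-like catalytic subunit, the IL-4 difference in Stat6-/- cells minus that in wild-type cells was -0.53 on the log2 scale. It was -0.72 for Psmd13, a lid subunit, and -0.62 for the nuclear activator Psme3. A probeset assigned to both Psme2 and its near-identical copy Psme2b was left out of the member counts and medians, since its signal cannot be divided between them. It had a signal of 6.13 in Stat6-/- cells with IL-4, 5.96 in Stat6-/- cells in medium, 6.45 in wild-type cells with IL-4 and 6.21 in wild-type cells in medium, all above the floor of 2.52.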

How the results depend on the processing

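Of 135 recomputed member counts and medians, 121 stayed within 1.5 times the reported count or 0.1 of the reported median, and 14 moved, none with a change of sign. In wild-type cells, members higher past 0.5 with IL-4 numbered 20 with quantile normalization applied again and 23 with lowess, the lower count was 0 and 0, and the median was 0.40 and 0.39. Over all genes the split there was 15.8% higher and 16.5% lower with quantile normalization and 15.6% and 17.1% with lowess. For Stat6-/- against wild-type cells in medium, the lower count was 3 and 3 and the median -0.18 and -0.16. The median of the 3 immunosubunits changed sign there, to 0.073 and 0.10 from -0.052, sizes that are under 0.5. For the difference of IL-4 effects, members at or above 0.5 numbered 0 with quantile normalization, 0 with lowess and 2 with no floor, which admits Psmb11, and the median was -0.30 with lowess. The cause was not tested. For Stat6-/- against wild-type cells with IL-4, 21 to 27 members were lower and 0 were higher under all alternatives run. No paired analysis was possible because each group has 1 array. With 1 array per group, no replicate could be left out, and array, culture and animal differences cannot be told apart from the group.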

Other observations

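Genes that supply ubiquitin or carry tagged substrates to the proteasome were read beside the members. Of 9 such genes above the floor, 0 were past 0.5 with IL-4 in Stat6-/- cells, where 4.43% of all genes were higher and 5.05% lower. In wild-type cells 0 were higher and 1 was lower past 0.5 (Ufd1, a cofactor of the unfoldase Vcp, at -0.64), with a median of 0.11. The share lower was 11.1%, against 23.3% of all genes, and 11.9% of all genes were higher. Between genotypes with IL-4, 3 of the 9 were lower in Stat6-/- cells: Vcp at -0.85, the shuttle Rad23b at -0.83 and the ubiquitin-activating enzyme Uba6 at -0.61. That is 33.3% of a short list, against 15.3% of all genes, and 0 were higher, against 13.5%. In the class I peptide pathway list, Calr, a chaperone of the endoplasmic reticulum, was lower (-0.76) and Tap1 higher (0.77) in Stat6-/- than in wild-type cells with IL-4, the 2 of 10 genes past 0.5. Each is 10% of the list, and over all genes 15.3% were lower and 13.5% higher past 0.5 there. The list did not stand above those shares.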
